A study of Mus musculus with 6 samples.

Results

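The mitochondrial ribosomal proteins are the nuclear-encoded protein subunits of the ribosome inside mitochondria, and 78 of the 16653 genes kept from the deposited table of mouse neuronal cultures belonged to them. A gene was a member when its mouse symbol began with Mrpl or Mrps followed by a number, when it was not a pseudogene symbol ending in -ps, and when its mean normalized count over the 6 libraries was at least 10. Of 82 matching symbols, 4 were -ps pseudogenes and 0 fell below the minimum. The large subunit held 51 members, 30 with a homologue in the bacterial ribosome and 21 specific to mitochondria, and the small subunit held 27 members, 16 with a bacterial homologue and 11 specific to mitochondria. Mrps18a and Mrps30 carry small-subunit names but sit in the large subunit, and they were counted there. Mrps36 was counted with the small subunit, as its name has it.

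Mitochondria keep their own genome and their own ribosomes. The mitoribosome translates the few proteins that the mitochondrial genome encodes, which are core subunits of the respiratory chain and of ATP synthase, so that its products meet nuclear-encoded subunits in the same complexes. Its ribosomal RNAs are transcribed in the organelle, while every one of its proteins is made in the cytosol and imported, and neurons rely on the respiratory chain for much of the ATP that synapses use.

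RNA was sequenced from 6 mouse primary cortical neuronal cultures, all prepared from pups of postnatal day 1 and grown for 12 to 13 days in vitro in Neurobasal A with B27. In 3 of them NGPF2 was applied at 1.5 ng/ml for 2 h, and the other 3 received the vehicle, PBS, for the same time. Strain, sex and the number of pups behind a culture are not given in the labels, and the cultures carry no stated genetic change. By the series' design text the cultures form 3 pairs, each of its own experiment, and cultures with the same replicate number were taken as a pair. The comparison asked which transcripts differed after the exposure. A normalized count is a read count divided by the library's size factor, and a log2 difference compares normalized counts after 1 was added. Values of several libraries are given in the order of replicates 1, 2 and 3.

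Totals ran from 17478070 to 45193691 counted reads per library, and no member had fewer than 77 reads in any of them. Replicates 2 and 3 of each group share a stem in their library names which replicate 1 lacks, and each comparison was therefore made over the 3 pairs, within replicates 2 and 3, and between these 2 sets of cultures, called batches below. Markers of general neuronal identity were abundant in all 6 libraries, and their summed level over 10 of 10 genes kept was 209101, 294540.0 and 280755 with NGPF2, against 210108, 232015 and 229321 with vehicle in normalized counts. Markers of glial and mural cells were detected in every library as well, and their values stand beside the results.

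The members were moderately expressed genes, with a median over members of the mean normalized count of 771 and a range of 126 to 2171. Per kilobase of the principal transcript, which allows levels of different genes to be compared, the highest mean levels over the 6 libraries were those of Mrpl20, which binds ribosomal RNA early in large-subunit assembly, at 2636 ± 647 normalized counts per kb, Mrpl12, which forms the stalk that recruits translation factors, at 1649.8 ± 221, Mrps18a at 1615 ± 289 and Mrpl42, a mitochondria-specific subunit, at 1538 ± 93.9 (SD, n = 6). Mrpl12 and Mrps18a lay within 1 SD of each other, the library ranges of Mrpl12, Mrps18a and Mrpl42 overlapped, and Mrpl20 stayed above Mrpl42 in every library. The lowest per kb were Mrpl32 at 157 ± 11.1, Mrps35 at 133 ± 8.92 and Mrpl1, part of the mobile L1 stalk, at 129 ± 10.3, and the last pair did not differ beyond its spread. The order depends on the transcript chosen for the length: with all annotated exons of a gene merged, Mrps18a ranked 34 and Mrpl42 48 of 78.

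Summed over the members, the normalized count was 59700.3, 74913 and 75474 with NGPF2, against 62966, 67874 and 66599 with vehicle. The members took 0.207%, 0.231% and 0.241% of all normalized counts with NGPF2, against 0.218%, 0.231% and 0.230% with vehicle. Both libraries of replicate 1 were thus the lowest on either scale, and the summed count with NGPF2 was above vehicle in replicates 2 and 3 but below it in replicate 1. The ratio of the large-subunit sum to the small-subunit sum stayed between 1.92 and 1.99 in all 6 libraries.

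Promoter sequence was examined for what the members share beyond their names. A RefSeq window of 250 bases before to 50 bases after the start (GRCm38.p6) was found for 69 of the 78 members. Letters that match the binding motifs of 3 factors known to control genes for mitochondrial proteins were searched on both strands. GCGC, any base and TGCGC, the motif of NRF1, was in 13 of 69 member windows (18.8%) and in 9.90% of all 11068 windows. CCGGAAG, the core bound by ETS factors such as GABPA, was in 25 (36.2%), against 17.1% of all windows. AAGATGGC, the motif of YY1, was in 12 (17.4%), against 4.40% of all windows. At least 1 of the 3 was present in 42 member windows (60.9%), against 28.0% of all, and matches of different motifs overlapped in 0 members. TATAAA was in 4 (5.80%, against 7.21%), the CRE letters TGACGTCA in 2 (2.90%, against 3.15%) and the E-box CACGTG in 5 (7.25%, against 9.86%). A match describes letters in a window and not a bound site.

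The stretches below are from 6 members that passed a test in the following paragraphs, each read 5′ to 3′ along the gene's strand, with the motif in capitals. Mrpl12 and Mrps21 carry the NRF1 letters from positions -81 and -91, counted back from the transcription start.
Mrpl12, chr11:120484531-120484590, plus strand: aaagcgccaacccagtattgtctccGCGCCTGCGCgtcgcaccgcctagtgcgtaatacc
Mrps21, chr3:95871571-95871630, minus strand: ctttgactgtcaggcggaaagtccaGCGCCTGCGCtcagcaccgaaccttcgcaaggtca
Mrpl27 carries the ETS letters from position -55 on its own strand, and Mrpl48 carries them on the opposite strand, where they read CTTCCGG, from position -34.
Mrpl27, chr11:94653710-94653769, plus strand: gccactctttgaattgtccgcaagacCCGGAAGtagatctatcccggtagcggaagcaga
Mrpl48, chr7:100583131-100583190, minus strand: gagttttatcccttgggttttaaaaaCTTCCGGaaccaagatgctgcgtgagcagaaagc
In Mrpl37 and Mrps7 the YY1 letters lie just downstream of the start, from positions 27 and 19, as in 8 of the 12 members that hold them.
Mrpl37, chr4:107066822-107066851, minus strand: ctgcacgggcaAAGATGGCggcgtccaggt
Mrps7, chr11:115604147-115604176, plus strand: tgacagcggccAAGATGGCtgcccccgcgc

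Of the 78 members, 27 (34.6%) have a start within 1000 bp of the start of a gene that is transcribed away from it (overlaps of up to 500 bp included), against 1737 of the 14170 protein-coding genes kept (12.3%). Mrpl46 and Mrps11 lie head to head with 30 bp between their starts, Mrps12 neighbours Sars2, a mitochondrial seryl-tRNA synthetase, and Mrpl43 neighbours Twnk, the helicase that replicates mitochondrial DNA. Because the strand setting of the counting is not given in the sources used here, reads of overlapping exons could be assigned to either gene, and 17 members share over 10% of their exon length with another gene.

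**Figure D1:**
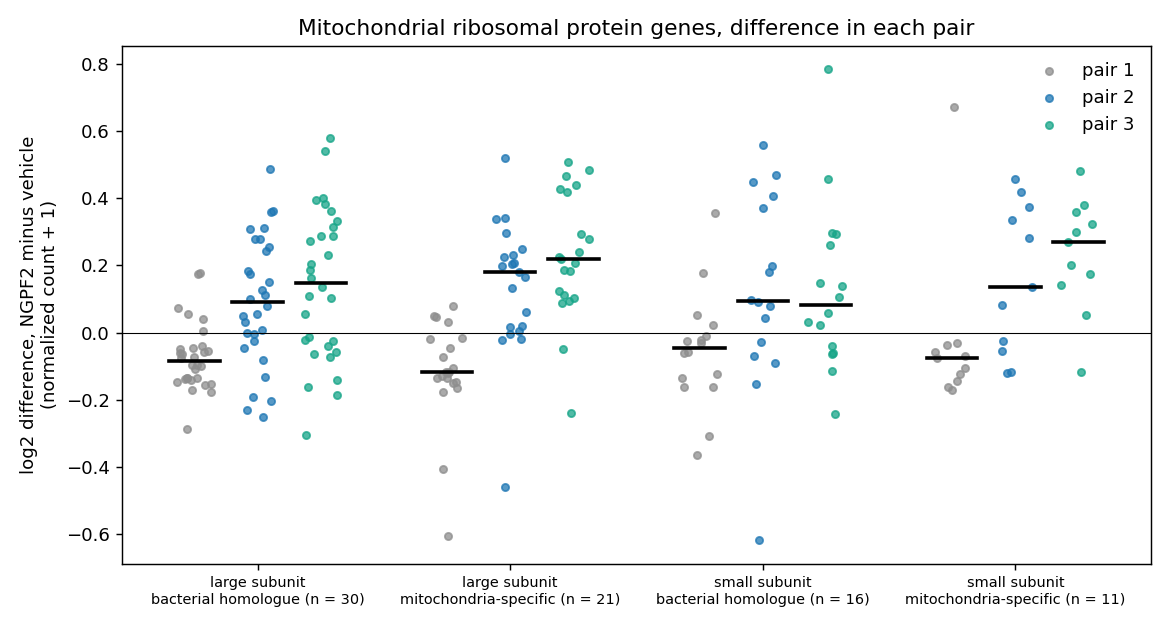
Log2 difference of NGPF2 over vehicle for each member in pairs 1, 2 and 3 (y axis), with points grouped by subunit and by whether a bacterial homologue exists, and with lines at the medians. All 4 classes have a median below 0 in pair 1, from -0.12 to -0.05, and above 0 in pairs 2 and 3, from 0.08 to 0.27.

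Within the pairs, the members were slightly lower with NGPF2 in pair 1 and slightly higher in pairs 2 and 3. The median log2 difference over the members was -0.09, 0.12 and 0.18 in pairs 1, 2 and 3, against 0.00, -0.01 and 0.00 over all genes kept. In pair 1, 15 of 78 members (19.2%) were higher with NGPF2, where 49.1% of all genes were. In pair 2 this was 55 members (70.5%, against 49.4% of all genes) and in pair 3 it was 59 (75.6%, against 49.8%). The pattern of lower in pair 1 and higher in pairs 2 and 3 was shown by 37 members (47.4%, against 18.7% of all genes) and its opposite by 1, Mrps17 (18.0% of all genes). 10 members were higher in all pairs (17.6% of all genes) and 10 were lower in all pairs (18.9%). The order of the classes was alike: the medians of the large subunit were -0.10, 0.13 and 0.19, and those of the small subunit were -0.06, 0.10 and 0.15. Pair 1 is 1 library per group and has no test of its own.

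Over the 3 pairs no member passed an adjusted p of 0.05. With limma, 0 of 78 members were called, where 0.0% of all genes were, and 0 members had an unadjusted p under 0.05, against 2166 of the 16653 genes. The smallest adjusted p of a member was 0.382, and voom on the recovered counts also called 0 members, with 0 of them at an unadjusted p under 0.05. The median over members was 0.10, against -0.01 over all genes, and 58 of 78 lay above 0. With library totals in place of the size factors the median was 0.0101, against -0.09 over all genes, and 40 members lay above 0. Without pair 2 or pair 3 the median was 0.0631 or 0.0352. Without pair 1, 4 members rose (5.13%), where 1436 of all genes rose (8.62%) and 1839 fell. These p-values measure the spread between these libraries, since the labels do not say how far the cultures of an experiment were separate.

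The 5 members below kept 1 direction in all pairs and had the smallest p. Mrpl37, a mitochondria-specific subunit, held 1285, 1596 and 1622 normalized counts in NGPF2 replicates 1, 2 and 3, against 1217, 1299 and 1196 in vehicle replicates 1, 2 and 3, a log2 difference of 0.27 (SE 0.12; adjusted p = 0.382). Mrps28 held 225, 279.8 and 273 with NGPF2, against 175, 216 and 222 with vehicle, a difference of 0.34 (SE 0.15; adjusted p = 0.392). For both, each NGPF2 library lay above its own vehicle library, and for Mrps28 all NGPF2 libraries lay above all vehicle libraries. Mrps23 held 841, 1034 and 1125 with NGPF2, against 527, 977 and 1021 with vehicle, with pair differences of 0.67, 0.08 and 0.14 and a fitted difference of 0.30 (SE 0.15; adjusted p = 0.419). Its vehicle library of replicate 1 stood below the other 5, and its difference in pair 1 was the largest of all members. On the lower side, Mrps14 held 507, 623 and 732 with NGPF2, against 553, 957 and 867 with vehicle, a difference of -0.33 (SE 0.14; adjusted p = 0.387), and Mrpl39, which is related to threonyl-tRNA synthetases, held 824, 637 and 651 with NGPF2, against 851, 876 and 769 with vehicle, a difference of -0.25 (SE 0.13; adjusted p = 0.422). For both of these the largest gap lay in replicates 2 and 3, and every vehicle library lay above the NGPF2 library of its pair.

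In replicates 2 and 3, 10 members rose with NGPF2 and none fell. They were Mrpl12, Mrpl20, Mrpl37 and Mrpl41 of the large subunit and Mrps7, Mrps21, Mrps24, Mrps27, Mrps34 and Mrps36 of the small subunit, with rises of 1.24-fold to 1.59-fold (limma, 2 libraries per group). These are 12.8% of the members, where 9.77% of all genes rose, and 0 members fell, where 11.3% of all genes did, so the share that rose was near the background. With voom on the recovered counts 15 members rose (19.2%, against 11.2% of all genes), all 10 named here among them. In that fit 1 member fell, where 12.6% of all genes did. With the replicate block 4 rose (5.13%), where 8.62% of all genes rose. When either vehicle library was left out 0 members passed, and so did 0 of the 16653 genes. With library totals 1 rose and 2 fell, where 982 of all genes rose and 2664 fell. The median log2 difference was 0.13 over the members and 0.00 over all genes, and 62 of 78 members were above 0. With library totals it was 0.00265 over the members and -0.13 over all genes, and 41 members were above 0. Both NGPF2 libraries lay above both vehicle libraries for 42 members (53.8%, against 32.3% of all genes) and below both for 9 (32.7% of all genes). In bulk RNA, fewer cells of a type and less RNA per cell cannot be told apart, and the same holds for more.

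In the same 4 libraries the markers of glial cells also differed. The summed level of 13 astrocyte markers kept of 14 was 35969, 22074 and 18611 with NGPF2, against 32026, 91009.6 and 83453 with vehicle in normalized counts, and all 13 fell in replicates 2 and 3. Of the microglia markers 9 of 12 kept fell, with sums of 2221, 391 and 400.2 with NGPF2, against 2109.9, 1183 and 1101 with vehicle. Of the oligodendrocyte precursor markers 3 of 6 kept fell, and of the fibroblast and mural markers 4 of 10 fell and 1 rose. Of 9 oligodendrocyte markers kept 1 rose and 2 fell. Of 10 general neuron markers 5 rose and none fell, of 10 excitatory neuron markers 4 rose and 3 fell, and of 11 inhibitory neuron markers 6 rose and 3 fell. In NGPF2 replicates 2 and 3, Gjb6 of the astrocyte list, Aif1 of the microglia list and Gpr17 of the precursor list were at 0, as were Cx3cr1 in replicate 2 and Itgam in replicate 3, and no marker of these 3 lists was at 0 in the other libraries. In pair 1 the median log2 difference was 0.02 over the astrocyte markers and 0.14 over the microglia markers. The part of these differences in the members' differences was not tested.

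**Figure D2:**
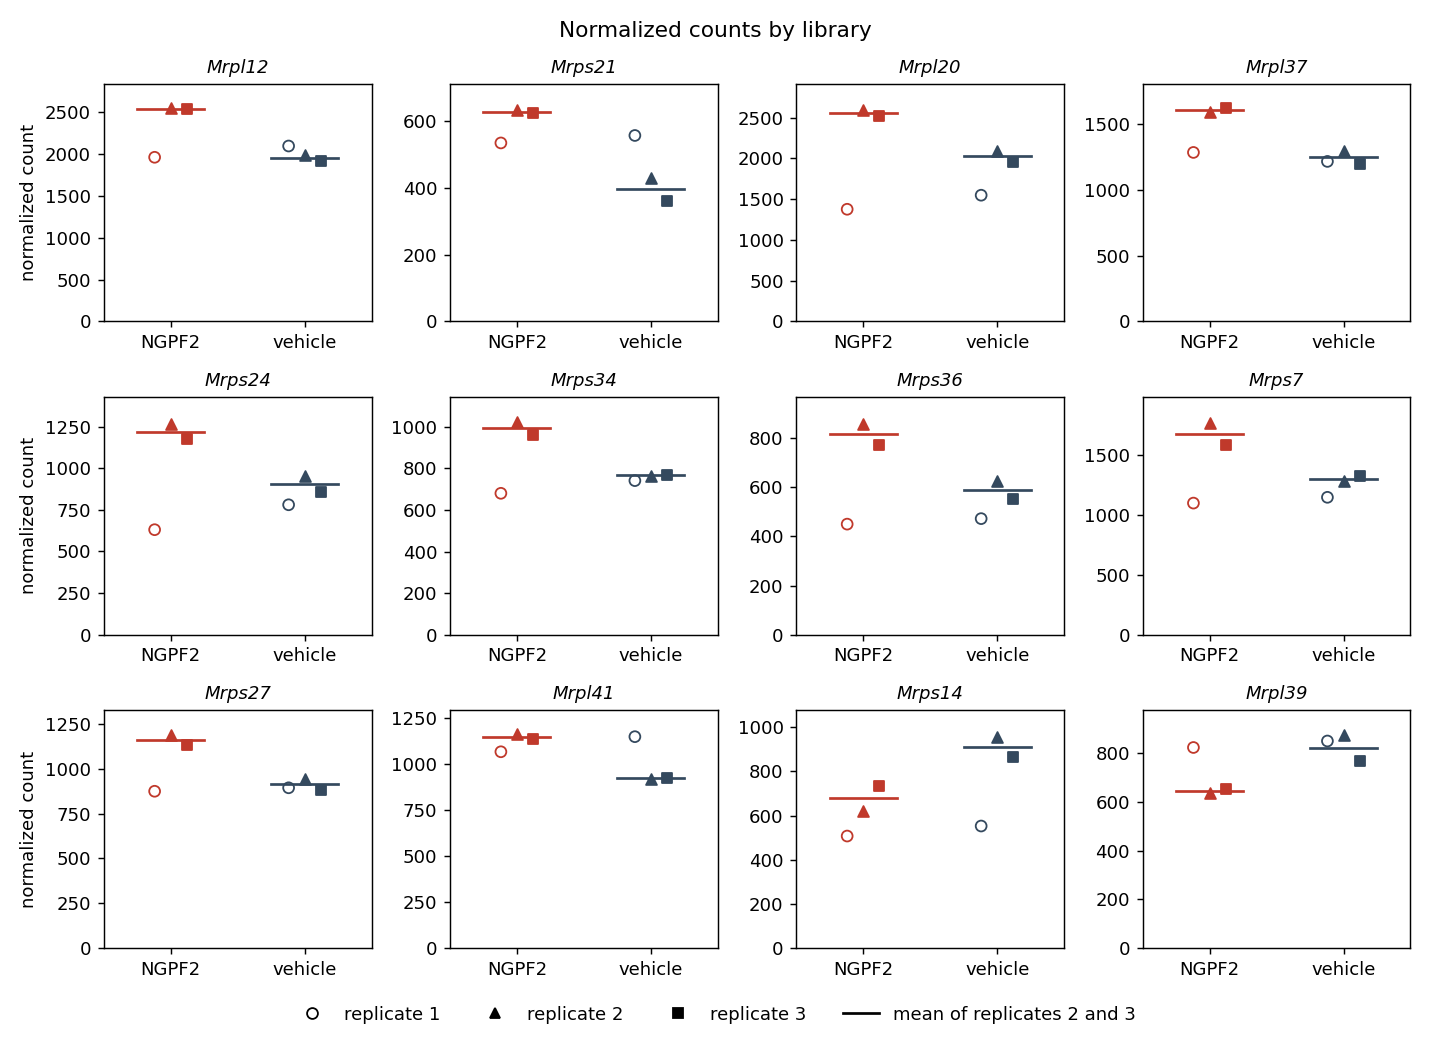
Normalized counts (y axis, from 0) of the 10 members that rose in replicates 2 and 3 and of Mrps14 and Mrpl39, which did not pass, with 1 point per library, NGPF2 left of vehicle, shapes for the replicates and a line at the mean of replicates 2 and 3. For the 10 that rose both NGPF2 points of replicates 2 and 3 lie above both vehicle points, while in replicate 1 the NGPF2 point lies below the vehicle point except for Mrpl37.

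Among the large-subunit proteins, Mrpl12 had the smallest p of any member (ENSMUSG00000039640, chromosome 11, 120484613 to 120489065, mm10). It held 1959, 2548 and 2531 normalized counts in NGPF2 replicates 1, 2 and 3, against 2093, 1981 and 1916 in vehicle replicates 1, 2 and 3. Both NGPF2 libraries of replicates 2 and 3 were above the other 4, and the log2 difference in these replicates was 0.38 (SE 0.07; adjusted p = 0.0211), a 1.30-fold rise. It passed under 10 of 14 alternatives, and 13.1% of its exon length is overlapped by Gm16755. The other members that rose passed under fewer of the 14, from 6 for Mrpl20, Mrpl37, Mrpl41, Mrps27 and Mrps34 to 8 for Mrps21. Mrpl20 (ENSMUSG00000029066, chromosome 4, 155802878 to 155809975) held 1376, 2591 and 2522 with NGPF2, against 1548, 2086 and 1961 with vehicle. Both libraries of replicate 1 were lowest, and within replicates 2 and 3 NGPF2 was above vehicle by 0.34 (SE 0.07; adjusted p = 0.0339), or 1.26-fold. Mrpl37 (ENSMUSG00000028622, chromosome 4, 107055874 to 107066868) rose by 0.37 (SE 0.08; adjusted p = 0.0363), or 1.29-fold, and NGPF2 was above vehicle also in replicate 1. Mrpl41, a mitochondria-specific subunit (ENSMUSG00000036850, chromosome 2, 24974117 to 24975098), held 1068, 1164 and 1136 with NGPF2, against 1150.4, 921 and 927 with vehicle, a rise of 0.32 (SE 0.08; adjusted p = 0.049). Here the vehicle library of replicate 1 lay within the range of the NGPF2 libraries, and its adjusted p was the closest to the threshold.

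Among the small-subunit proteins, Mrps21 had the largest rise (ENSMUSG00000054312, chromosome 3, 95862634 to 95871519). It held 535, 635 and 625 normalized counts in NGPF2 replicates 1, 2 and 3, against 558, 430.5 and 363 in vehicle replicates 1, 2 and 3. The vehicle libraries of replicates 2 and 3 were below all others, and the log2 difference was 0.67 (SE 0.13; adjusted p = 0.0236), or 1.59-fold. Mrps7, which organizes the head of the subunit (ENSMUSG00000046756, chromosome 11, 115603925 to 115608036), held 1096, 1766 and 1578 with NGPF2, against 1144, 1276 and 1318 with vehicle, a rise of 0.36 (SE 0.09; adjusted p = 0.0461). Mrps24, at the entry of the mRNA channel (ENSMUSG00000020477, chromosome 11, 5703983 to 5715680), held 631, 1266 and 1174 with NGPF2, against 780.3, 956 and 854 with vehicle, a rise of 0.43 (SE 0.10; adjusted p = 0.0394). In both genes replicate 1 was low in both groups, and for Mrps24 its NGPF2 library was the lowest of the 6. Mrps24 shares 15.4% of its exon length with Urgcp.

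Another 3 that rose were classed here as small-subunit proteins specific to mitochondria. Mrps34, which in human cells is needed for the stability of the small ribosomal RNA (ENSMUSG00000038880, chromosome 17, 24895116 to 24897502), held 680.0, 1022 and 962 with NGPF2, against 741, 765 and 768 with vehicle, a rise of 0.37 (SE 0.09; adjusted p = 0.0414). Mrps27, a pentatricopeptide repeat protein (ENSMUSG00000041632, chromosome 13, 99344786 to 99415562), held 875, 1191 and 1134 with NGPF2, against 894, 943 and 884 with vehicle, a rise of 0.35 (SE 0.09; adjusted p = 0.0478). In both, the vehicle libraries were close to each other and the NGPF2 libraries of replicates 2 and 3 stood above them. Mrps36, also known as a part of the 2-oxoglutarate dehydrogenase complex (ENSMUSG00000061474, chromosome 13, 100735955 to 100744659), held 449.7, 858 and 772 with NGPF2, against 472, 625 and 552 with vehicle, a rise of 0.47 (SE 0.12; adjusted p = 0.0458). Replicate 1 was lowest in both groups for Mrps36. Exons of Mrps34 overlap Mapk8ip3 over 63.4% of their length, and Mapk8ip3 had a mean normalized count of 13399, so that reads of the 2 genes may be mixed. Mrps27 overlaps another gene over 24.2%. Without the 17 members overlapped over 10%, 6 of 61 rose, where 9.77% of all genes rose, so their share was near the background.

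The rises were spread over the classes: 2 of 30 large-subunit members with a bacterial homologue, 2 of 21 large-subunit members specific to mitochondria, 3 of 16 small-subunit members with a homologue and 3 of 11 specific to mitochondria. Differences between these counts were not tested. Just above the threshold were Mrpl48 (adjusted p = 0.0532), Mrpl54 (0.0537), Mrps18a (0.0547) and Mrps26 (0.0591). The 3 relatives Mrps18a, Mrps18b and Mrps18c, of which the first belongs to the large subunit, did not pass. Mrps18a held 1164, 1679.7 and 1786 with NGPF2, against 1224, 1437 and 1276 with vehicle, with a difference of 0.35 (SE 0.09; adjusted p = 0.0547). For Mrps18b it was 0.33 (SE 0.09; adjusted p = 0.0658) and for Mrps18c 0.10 (SE 0.16; adjusted p = 0.691). For Mrps18a and Mrps18b both NGPF2 libraries of replicates 2 and 3 exceeded both vehicle libraries, while for Mrps18c the groups overlapped. Mrps30, of the large subunit, differed by 0.32 (SE 0.10; adjusted p = 0.0807).

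On the lower side none passed. Mrps14 came closest, at -0.43 (SE 0.12; adjusted p = 0.0632), and passed under 3 of 14 alternatives, voom among them. Mrpl39 differed by -0.35 (SE 0.11; adjusted p = 0.0757). In both genes the 2 NGPF2 libraries lay below the 2 vehicle libraries. Mrpl24, at the exit of the peptide tunnel, held 643, 567 and 573 with NGPF2, against 706, 653 and 707 with vehicle, a difference of -0.25 (SE 0.10; adjusted p = 0.133), and Mrpl2, close to the catalytic centre, held 573, 634 and 590.5 with NGPF2, against 617, 754 and 671 with vehicle, a difference of -0.22 (SE 0.11; adjusted p = 0.215). Mrpl13, Mrps17, Mrps31 and Mrpl1 differed by -0.14, -0.11, -0.12 and -0.10, with adjusted p of 0.351, 0.399, 0.484 and 0.548. All 8 had both NGPF2 libraries of replicates 2 and 3 below both vehicle libraries.

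Whether the effect of NGPF2 differed between batches was tested as an interaction. Replicate 1 has 1 library per group, so the spread between libraries in this test comes from replicates 2 and 3 alone. The test holds no estimate of the spread among cultures of replicate 1. For 64 of 78 members the effect was more positive in replicates 2 and 3 than in replicate 1, with a median of 0.22 over members and -0.01 over all genes. With library totals it was 49 members, with a median of 0.0992 over members and -0.13 over all genes. No member passed with limma (0 of 78 in either direction, where 2.49% of all genes passed, 0.721% as more positive and 1.77% as less positive), the smallest adjusted p was 0.108, and 17 members had an unadjusted p under 0.05, or 3386 of all genes. With voom 0 passed, where 2.91% of all genes were more positive and 5.30% less positive. In that fit 20 members had an unadjusted p under 0.05, or 4304 of all genes. Mrpl58, a peptidyl-tRNA hydrolase built into the large subunit, held 498, 503 and 495 with NGPF2, against 661, 429 and 429 with vehicle, and its difference of the effects was 0.63 (SE 0.17; adjusted p = 0.137). The vehicle library of replicate 1 was the highest of the 6. Mrps23 went the other way, at -0.56 (SE 0.16; adjusted p = 0.149).

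**Figure D3:**
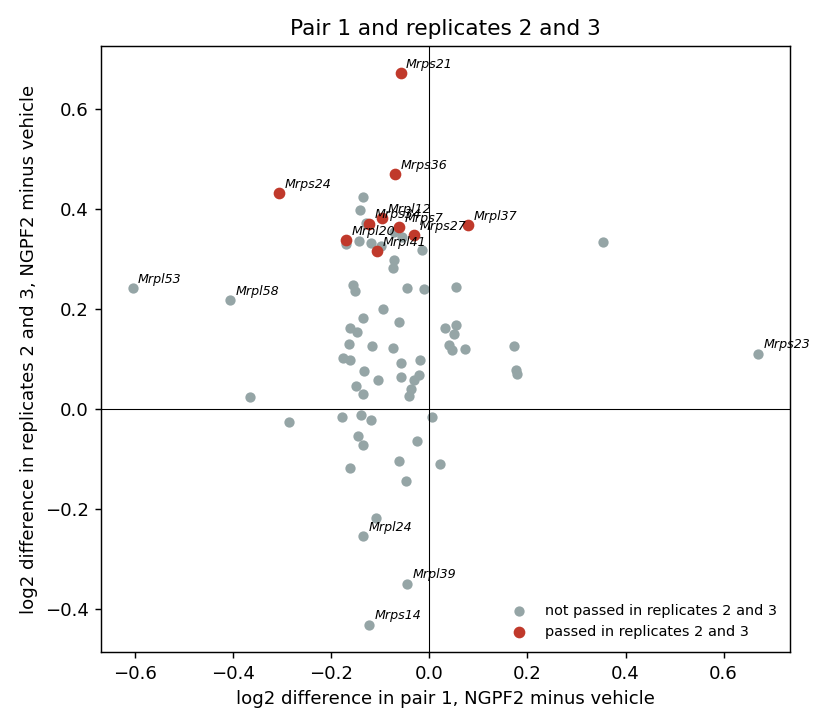
Log2 difference of NGPF2 over vehicle in pair 1 (x axis) against that in replicates 2 and 3 (y axis), 1 point per member, with members that rose in replicates 2 and 3 marked. Most points lie left of 0 and above 0, and Mrps23 and Mrpl53 are the extremes of pair 1 at 0.67 and -0.61.

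Between batches, with the treatment in the model, 16 members were higher in replicates 2 and 3 than in replicate 1 and 1 was lower. These are 20.5% of members, where 14.0% of all genes were higher, and 1.28%, where 13.5% of all genes were lower (limma). The median log2 difference was 0.18 over members and -0.05 over all genes, and 59 of 78 lay above 0. All 4 libraries of replicates 2 and 3 were above both of replicate 1 for 40 members (51.3%, against 24.9% of all genes) and below both for 4 (26.9% of all genes), which were Mrpl52, Mrps5, Mrps6 and Mrps31. Marker levels moved with the batch too: 8 of 10 fibroblast and mural markers and 7 of 12 microglia markers were lower in replicates 2 and 3, as were 8 of 11 inhibitory neuron markers, of which 1 was higher, and 2 of 6 oligodendrocyte precursor markers. Of the general neuron markers 4 were higher and 1 was lower, of the excitatory neuron markers 3 were higher and 2 lower, and of the oligodendrocyte markers 3 were higher. Of the astrocyte markers 1 was higher, and of 3 endothelial markers 1 was lower. The batch term averages over both groups, and in some lists the groups moved in opposite directions. The astrocyte sums were 32026, 91009.6 and 83453 with vehicle, against 35969, 22074 and 18611 with NGPF2. Those of the precursor markers were 3531, 7281 and 6748 with vehicle, against 3635, 1260 and 1303 with NGPF2. With 1 library of replicates 2 and 3 left out, 6 to 10 members passed. Of all genes, 8.58% to 9.63% were then higher and 7.94% to 9.55% lower. Without NGPF2 or vehicle replicate 1 that batch keeps 1 library, and the median over members was 0.0868 or 0.32. Over all genes it was -0.01 or -0.05. The part of the markers in the result was not tested, and everything done apart for replicate 1 cannot be told apart from the batch.

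Mrps33, a mitochondria-specific subunit, had the smallest p and held 593, 1019.8 and 1217 with NGPF2, against 609, 1107 and 1059 with vehicle. Its 4 libraries of replicates 2 and 3 were above both of replicate 1 by 0.87 (SE 0.11; adjusted p = 0.00338), or 1.83-fold. Mrpl48, a subunit of the central protuberance, held 972, 2197 and 2195 with NGPF2, against 1056, 1851 and 1642 with vehicle, a difference of 0.95 (SE 0.13; adjusted p = 0.00396), or 1.93-fold. Mrpl27, whose bacterial homologue reaches into the peptidyl transferase centre, held 533, 859.6 and 894 with NGPF2, against 471, 887 and 785 with vehicle, a difference of 0.77 (SE 0.11; adjusted p = 0.00436). The batches did not overlap in any of these 3 genes. Mrpl33 held 359, 607 and 779 with NGPF2, against 394, 666 and 638 with vehicle, a difference of 0.83 (SE 0.14; adjusted p = 0.00836). These 4 members passed under each of 15 alternatives. Mrpl53 held 49.3, 155 and 187 with NGPF2, against 75.4, 154 and 135 with vehicle, the largest difference at 1.35 (SE 0.25; adjusted p = 0.0119), or 2.54-fold, but 88.0% of its exon length is overlapped by Gm42688, with a mean normalized count of 549. The other members that were higher were Mrpl3, Mrpl9, Mrpl18, Mrpl20, Mrpl44, Mrpl57, Mrps10, Mrps14, Mrps16, Mrps23 and Mrps36.

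Mrps6 was the member that was lower, at 1131, 909.8 and 870.4 with NGPF2, against 1243, 928 and 942 with vehicle, a difference of -0.38 (SE 0.09; adjusted p = 0.0252). Both libraries of replicate 1 were above the other 4. Mrps5, Mrps31, Mrpl58 and Mrps30 did not pass, with differences of -0.29, -0.21, -0.31 and -0.20 and adjusted p of 0.0609, 0.186, 0.202 and 0.242. Mrpl20 and Mrps36 were the members that both rose with NGPF2 in replicates 2 and 3 and were higher in that batch, with batch differences of 0.64 (SE 0.13; adjusted p = 0.0153) and 0.58 (SE 0.16; adjusted p = 0.0379). The batch term includes the NGPF2 libraries in which both members rose, so the results overlap. In the vehicle libraries alone, Mrpl20 held 1548, 2086 and 1961 normalized counts and Mrps36 held 472, 625 and 552.

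**Figure D4:**
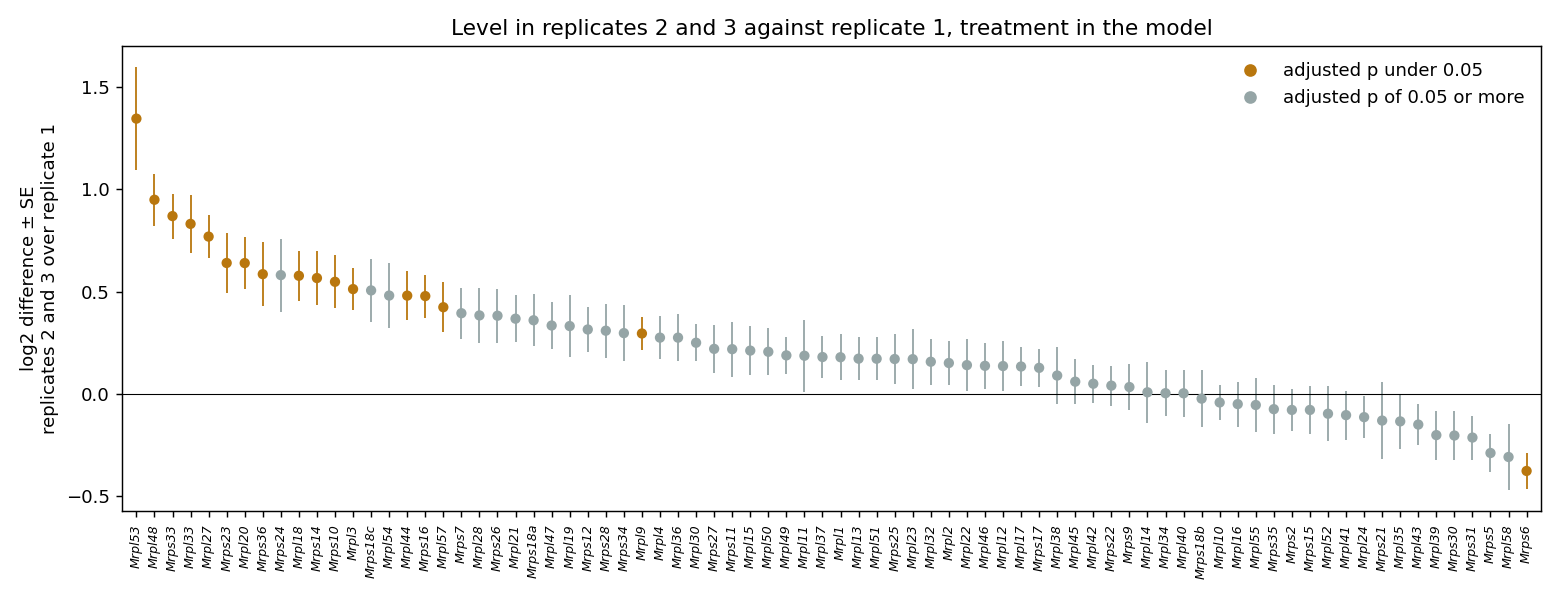
Log2 difference of replicates 2 and 3 over replicate 1 for the 78 members in order of size, with bars for the standard error and members that passed marked. The values run from -0.38 for Mrps6 to 1.35 for Mrpl53, and 59 lie above 0.

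The ribosomal RNAs of the mitoribosome were higher in the same batch. The small-subunit RNA mt-Rnr1 held 25985, 36409.8 and 42259 with NGPF2, against 27549.8, 46118 and 39146 with vehicle in normalized counts, a batch difference of 0.61 (SE 0.11; adjusted p = 0.00995), and the large-subunit RNA mt-Rnr2 held 41383, 61985 and 71152 with NGPF2, against 42635, 73800.5 and 62578 with vehicle, a difference of 0.68 (SE 0.11; adjusted p = 0.00722). Of the 13 mitochondrially encoded mRNAs, which the mitoribosome translates, 8 were lower and 0 higher in replicates 2 and 3, among them mt-Atp8 at -0.80 (SE 0.10; adjusted p = 0.00367) and mt-Nd4l at -0.72 (SE 0.10; adjusted p = 0.00401). The libraries were selected with oligo(dT), and the tails of the organelle RNAs were not measured. With NGPF2, 0 of the 15 organelle transcripts passed in replicates 2 and 3 (limma, 0 at an unadjusted p under 0.05), and their pair medians were -0.01, -0.12 and 0.16.

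Other proteins of the mitoribosome and its machinery were compared with the members. The background for the counts of each list is 9.77% of all genes that rose and 11.3% that fell in replicates 2 and 3. Of the 5 mitoribosomal proteins with other names, Dap3, a GTP-binding protein of the small subunit, rose in replicates 2 and 3. It held 2026, 2905 and 2947 with NGPF2, against 1996, 2206 and 2134 with vehicle, a rise of 0.43 (SE 0.07; adjusted p = 0.0146), or 1.35-fold. Both NGPF2 libraries were above all others, as for Mrpl12. Ptcd3, Chchd1, Aurkaip1 and Gadd45gip1 did not pass (adjusted p = 0.517, 0.776, 0.475 and 0.626), and Chchd1 and Aurkaip1 were higher in the batch of replicates 2 and 3. Of 26 mitoribosome assembly factors 0 rose and 0 fell, with 4 at an unadjusted p under 0.05. Ngrn, which binds the large ribosomal RNA, differed by -0.30 (SE 0.08; adjusted p = 0.065), and the RNA helicases Ddx28 and Dhx30 differed by 0.37 (SE 0.11; adjusted p = 0.0706) and 0.39 (SE 0.14; adjusted p = 0.106).

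Of 16 mitochondrial translation factors kept of 17, 3 rose and none fell: Gfm1, an elongation factor, by 0.33 (SE 0.07; adjusted p = 0.0283), Tufm, which delivers aminoacyl-tRNA, by 0.36 (SE 0.09; adjusted p = 0.0442), and Lrpprc, which stabilizes mitochondrial mRNA, by 0.31 (SE 0.07; adjusted p = 0.0392). Of 20 genes for charging mitochondrial tRNA 0 passed, with 5 at an unadjusted p under 0.05, and Aars2 came closest at 0.55 (SE 0.14; adjusted p = 0.051). Of 18 genes for mitochondrial DNA maintenance and transcription 1 rose, the DNA polymerase Polg, by 0.40 (SE 0.09; adjusted p = 0.0334). Of 15 import and chaperone genes 0 passed, with 5 at an unadjusted p under 0.05.

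Of 11 regulators of mitochondrial biogenesis, 2 rose and 1 fell in replicates 2 and 3. Esrra, a nuclear receptor, rose by 0.73 (SE 0.11; adjusted p = 0.0141), at 1112, 2142 and 2163 with NGPF2, against 1155, 1171 and 1428 with vehicle. Ppargc1a, its coactivator, rose by 0.36 (SE 0.07; adjusted p = 0.0289). Gabpa, the DNA-binding subunit of an ETS factor, fell by 0.59 on the log2 scale (SE 0.12; adjusted p = 0.0275), at 618, 356 and 377 with NGPF2, against 577, 589 and 521 with vehicle. In Gabpa both NGPF2 libraries of replicates 2 and 3 lay below both vehicle libraries. Nrf1 and Yy1, chosen for the motifs above, did not pass, with differences of 0.38 (SE 0.15; adjusted p = 0.135) and 0.07 (SE 0.07; adjusted p = 0.531).

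**Figure D5:**
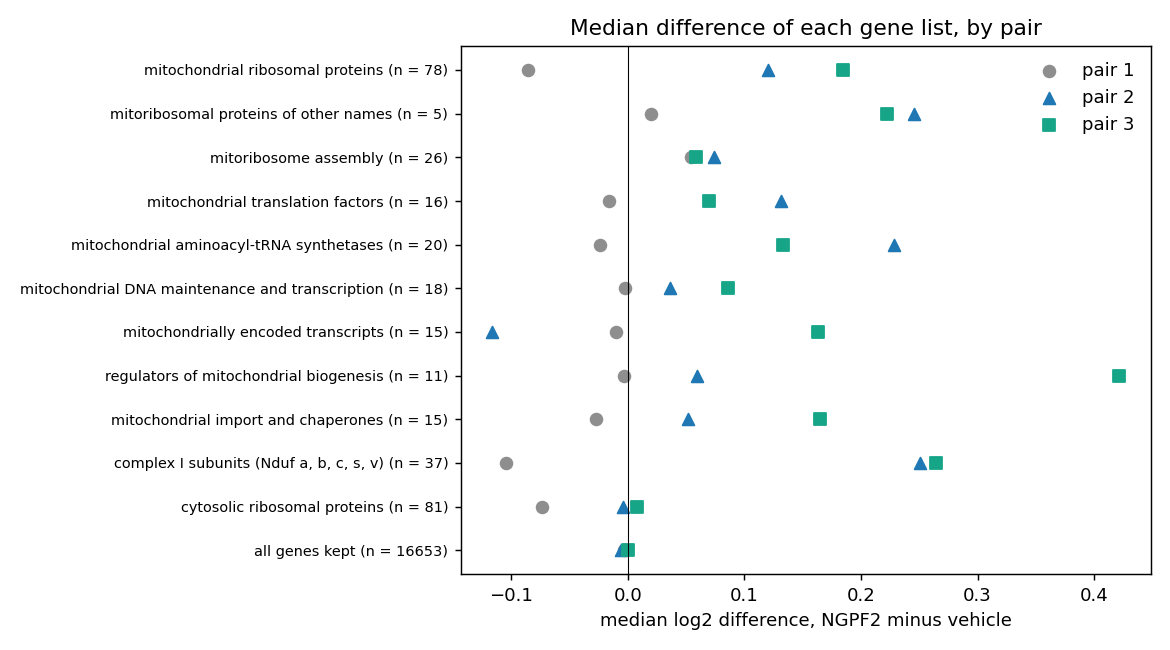
Median log2 difference of NGPF2 over vehicle in pairs 1, 2 and 3 (x axis) for the members (top) and for each further gene list down the page, with all genes kept at the bottom. The members run from -0.09 in pair 1 to 0.18 in pair 3, the complex I subunits from -0.10 to 0.26, and the 3 medians of all genes lie at 0.00, -0.01 and 0.00.

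Nuclear subunits of complex I, which join the products of mitochondrial translation, had pair medians of -0.10, 0.25 and 0.26. In replicates 2 and 3, 14 of 37 rose and none fell, where 9.77% of all genes rose and 11.3% fell. Among those that rose were Ndufb5 by 0.47 (SE 0.07; adjusted p = 0.0112), a divergent neighbour of the member Mrpl47, and Ndufb8 by 0.51 (SE 0.08; adjusted p = 0.0151). Between batches 23 of 37 were higher and none lower, where 14.0% of all genes were higher and 13.5% lower. Mrpl47 itself did not pass, with an adjusted p of 0.711. Of 81 cytosolic ribosomal proteins 0 rose and 2 fell, Rps27l and Rps4l, with pair medians of -0.07, 0.00 and 0.01, and 28 were higher and 4 lower between batches. Differences between these lists and the members were not tested.

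Divergent partners of members that rose were read beside them. Ptcd2, another pentatricopeptide repeat protein, lies head to head with Mrps27, with 81 bp between the starts, and rose by 0.41 (adjusted p = 0.0253). Eme2, 29 bp from Mrps34, rose by 0.76 (adjusted p = 0.0307). Cyb5rl, 120 bp from Mrpl37, differed by 0.17 (adjusted p = 0.653), and Gga3, the neighbour of Mrps7, did not pass either. Pnpla7, 935 bp from Mrpl41, fell by 0.88 on the log2 scale (adjusted p = 0.04999).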

How the data were processed

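The authors deposited 1 table of log2 values. Its name speaks of FPKM, but 2 raised to the value, minus 1, gave whole multiples of 1 step per library for 100% of values (tolerance 0.01 of a count), so the deposited log2 values are of normalized counts plus a pseudocount of 1, and counts were recovered. The plan had assumed this unit and its test was kept. Per the submitters' processing notes, FastQC, STAR 2.5, Cuffnorm, DESeq 1.22.1 and mm10 were used, with no role or order. Which annotation, counter and strand setting were used is not given in the sources used here.

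Symbols were found for 31185 of 31245 identifiers. The 16653 genes of mean at least 10 were fitted with limma 3.58.1 in R 4.3.3 (empirical Bayes, mean-variance trend, 2-sided tests, p adjusted by Benjamini-Hochberg over all genes kept, threshold 0.05). The 3-pair fit had the replicate number as a block, that of replicates 2 and 3 had none, and the others had the batch as a term. The series states the pairs. Deviations from group means correlated across genes at r = 0.59, 0.30 and 0.33 between same-numbered libraries, at 0.32 and 0.34 between replicates 2 and 3 crossed, and at -0.0146 between same-numbered libraries within replicates 2 and 3 alone. The batch was read from library names, and the titles do not state it. The columns of replicate 1 were matched by elimination, although they carry the digit 3.

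Alternatives were other pseudocounts, filters, scalings (quantiles, library totals, and trimmed means of M values, or TMM, written out in R) and variance priors, the block, voom on the recovered counts, and leaving out each library. Leaving out overlapped members was chosen after seeing the data. The fits were tested on simulated data. Members and gene lists were chosen with earlier results of these data known. Named members were the 8 of smallest p per direction in replicates 2 and 3, 5 per direction between batches, 5 of the 3 pairs, the 4 highest and 3 lowest per kb, the extremes of pair 1 and 7 by name, with up to 3 genes per further list. Mrps27, Mrpl41, Nrf1, Yy1, mt-Rnr1, mt-Rnr2, mt-Atp8 and the divergent partners were added after their values were seen, as were members listed for completing a count. Coordinates are from GENCODE M21, and promoters from RefSeq (GRCm38.p6). Python 3.11.15 with matplotlib 3.10.9 drew the figures.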

Additional observations from a re-analysis of the deposited data

How the results depend on the processing

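Over the 3 pairs, 0 members passed under every alternative except without replicate 1, where 4 passed (range 0 to 4 over the pairs left out), and without the replicate block it was 0. In replicates 2 and 3 the 10 calls became 16 at a minimum mean of 50, 3 with no filter, 3 with library totals, 0 with no mean-variance trend, 16 with voom (15 higher, 1 lower), 4 with the replicate block (Mrpl12, Mrps21, Mrps24 and Mrps36) and 6 without overlapped members. Leaving out 1 library gave 0 to 3: without NGPF2 replicate 2 it was 2, without NGPF2 replicate 3 it was 3, and without either vehicle replicate it was 0. With library totals 1 member rose and 2 fell (Mrps21, and Mrps14 and Mrpl39), against 10 and 0, and the median over all genes moved to -0.13, so the members' median of 0.00265 was again 0.13 above it. That median was 0.20 with quantile normalization, against 0.06 over all genes. With 1 library left out it was 0.12 to 0.18, against -0.02 to 0.01 over all genes. Each such fit has 1 library in a group, so only its median is compared here. At a minimum mean of 50, 20.5% of members rose, where 13.4% of the genes tested rose and 14.2% fell. With no filter 3.85% of members rose, where 1.08% of all genes rose and 2.36% fell. With no trend 0% of members rose, where 2.65% of all genes rose and 6.56% fell. The interaction gave 6 members with no filter, all more positive (7.69%), and 0 with the replicate block. With no filter 6.15% of all genes were more positive and 8.84% less positive, and with the block 0.889% and 2.27%. Between batches the 17 calls became 9 with no trend and 6 to 26 with 1 library left out: 9 without NGPF2 replicate 1, 10 without NGPF2 replicate 2, 6 without NGPF2 replicate 3, 26 without vehicle replicate 1, and 7 without vehicle replicate 2 or 3. With no trend 11.5% of members were higher and 0% lower, against 10.3% and 10.1% of all genes. With 1 library of replicates 2 and 3 left out, 7.69% to 11.5% of members were higher, against 8.58% to 9.63% of all genes. Without a library of replicate 1 that batch keeps 1 library, so those counts give no comparison with all genes. The median of 0.18 became 0.0868 to 0.32, the highest without vehicle replicate 1, where it was -0.05 over all genes. Mrpl58 changed direction there, to 0.00293 (log2), the lowest of the 6 being -0.62. The cause of these changes was not tested. With TMM factors 15 members passed in replicates 2 and 3 and 18 between batches. In that setting 11.6% of all genes rose and 10.8% fell in replicates 2 and 3. Between batches 14.2% were higher and 13.0% lower. A planned count model is not reported, since the deposited values are log2 values and not counts. With 2 libraries per group the smallest rise of a member that passed was 1.24-fold, and a member that did not pass can still have differed.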

Other observations

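The 4 pseudogene copies that the rule left out were all detected. Mrpl23-ps1 held 106, 133 and 142 normalized counts with NGPF2, against 129.6, 141 and 129 with vehicle. Its parent gene Mrpl23 held 330.1, 404 and 447 with NGPF2, against 367, 382 and 339.9 with vehicle. The level of the copy was close to that of the lowest member, Mrpl53, whose mean was 126. Mrps36-ps1 held 28.1, 41.8 and 55.6 with NGPF2, against 33.5, 34.8 and 27.4 with vehicle, beside 449.7 to 858 for its parent gene Mrps36. Mrpl48-ps and Mrps36-ps2 stayed below 40 in every library. How the counting split reads between a member and such a copy is not given in the sources used here.

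The members lie on 17 chromosomes, with 11 of them on chromosome 11. Their promoter windows had a median GC content of 58%, against 61.3% over all windows.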
